A study of Homo sapiens with 8 samples.

Results

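The MAGE-A genes are a family of cancer-testis antigens on chromosome X, and 7 of them are described here across 8 Affymetrix expression arrays of colorectal and pancreatic cancer cells: MAGEA1, MAGEA3, MAGEA4, MAGEA6, MAGEA10, MAGEA11 and MAGEA12. The 7 genes were picked by name because some of them had differed between the cell lines and clones of these same arrays, and every probe set whose only annotated symbol was 1 of the 7 was taken. That gave 6 probe sets of the 22215 on the array that are not controls. MAGEA3 had no probe set of its own, so 6 of the 7 genes could be read singly. Because levels over lines and clones chose the genes, those levels are given below as a description with no test, and the antibody comparison is the only one tested.

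MAGE-A genes are transcribed in male germ cells and are silent in most other adult tissues, where their promoters carry DNA methylation. Many tumours transcribe them again, commonly after that methylation is lost. The proteins share a MAGE homology domain through which they bind RING-type ubiquitin ligases, and peptides cut from them are displayed on HLA molecules, where T cells recognise them.

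The arrays measured total RNA from HT29, a human colorectal carcinoma line, from clones made from it, and from Colo357, a pancreatic carcinoma line. The HT29 clones carried short hairpin RNA (shRNA) vectors: 1 clone held 1 vector against CD24, 2 clones, named G and E, held 2 such vectors, and 1 clone held a vector against green fluorescent protein (GFP) as the control. Each of the 4 is a single clone. Colo357 and HT29 were each profiled after 72 h with SWA11, a monoclonal antibody to CD24, diluted 1:40, and without it. Each condition had 1 array, apart from 2 for the 2-vector clones, and no array with a control antibody was analysed here.

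CD24, the surface glycoprotein that the shRNA and the antibody target, averaged 8.40, 7.78 and 8.39 on the log2 scale over its 6 probe sets in the 1-vector clone and clones G and E, against 11.56 in the GFP clone and 11.25 in HT29. Intensities were MAS5 signals, scaled so that the trimmed means of the arrays lay between 248.0 and 248.6. Array medians ran between 32.4 and 63.1, with the GFP clone highest. The arrays carry no read depth, and their number limits the precision. Keratin 20, an intestinal keratin, read 6.7 in Colo357 and 1117.1 in HT29, while the intestinal transcription factors CDX1 and CDX2 lay below the array median on all 6 arrays of HT29 and its clones. Of 8 colorectal markers, 2 and 3 exceeded the array median in antibody-treated and untreated Colo357, against 4 in HT29. In the 1-vector clone, clones G and E and the GFP clone 3, 2, 1 and 3 did, so the count did not separate the lines. KRT20 (keratin 20), LGALS4, CEACAM5 and GPA33 of these markers read lower in untreated Colo357 than in HT29. CDX1, CDX2, CDH17 and VIL1 read higher, with 1123.5 against 439.3 for VIL1. Of 8 pancreatic duct markers, 7 and 6 exceeded the array median in antibody-treated and untreated Colo357, against 7 and 5 in antibody-treated and untreated HT29. KRT7, KRT19, MUC1, MSLN, PDX1 and TFF1 read higher in untreated Colo357 than in HT29, with 5468.1 against 38.8 for KRT7 (keratin 7). S100P and SOX9 read lower. The summed intensity of 5 measured testis germ cell markers lay between 13.6 and 62.4, highest in the GFP clone, and its part in the MAGE-A values was not tested. None of these 5 and none of the 3 measured leukocyte markers exceeded the median of any array.

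The promoters below belong to the genes that were high in different cells and are shown for that reason. RefSeq windows of 300 bases (GRCh38.p14, 250 bases before to 50 after the annotated start) were found for 5 of the 7 genes: MAGEA3, MAGEA4, MAGEA6, MAGEA11 and MAGEA12. MAGEA4 had 5 such windows, MAGEA12 had 2 and the others 1 each, and the first listed stands for the gene unless stated. The windows of MAGEA3 and MAGEA6 were identical, so 1 sequence stands for both. MAGEA6 is on the minus strand at chrX:152769640-152769939, MAGEA3 on the plus strand at chrX:152698544-152698843, MAGEA12 on the plus strand at chrX:152733507-152733806 and MAGEA11 on the plus strand at chrX:149711810-149712109. Capitals mark a 24-base stretch in MAGEA6 and MAGEA12 and its first 9 bases in MAGEA11.
MAGEA6: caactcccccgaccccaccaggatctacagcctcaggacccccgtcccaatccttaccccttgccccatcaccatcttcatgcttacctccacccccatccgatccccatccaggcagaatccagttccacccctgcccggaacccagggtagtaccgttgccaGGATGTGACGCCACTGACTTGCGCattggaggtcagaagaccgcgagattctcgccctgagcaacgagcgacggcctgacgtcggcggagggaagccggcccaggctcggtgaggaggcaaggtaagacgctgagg
MAGEA12: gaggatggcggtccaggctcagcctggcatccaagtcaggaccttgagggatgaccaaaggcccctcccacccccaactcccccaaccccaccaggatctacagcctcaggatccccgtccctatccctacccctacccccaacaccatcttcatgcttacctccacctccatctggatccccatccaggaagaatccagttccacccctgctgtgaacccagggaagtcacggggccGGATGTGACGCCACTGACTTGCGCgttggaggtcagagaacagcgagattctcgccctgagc
MAGEA11: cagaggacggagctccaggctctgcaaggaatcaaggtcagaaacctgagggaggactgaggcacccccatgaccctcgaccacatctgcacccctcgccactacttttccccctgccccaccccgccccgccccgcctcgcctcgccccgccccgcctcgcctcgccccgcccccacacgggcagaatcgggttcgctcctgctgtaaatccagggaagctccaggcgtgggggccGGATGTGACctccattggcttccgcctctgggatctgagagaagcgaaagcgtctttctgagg
The 24-base stretch GGATGTGACGCCACTGACTTGCGC lay in the windows of MAGEA2, MAGEA2B, MAGEA3, MAGEA6 and MAGEA12. Read on both strands, it was found in 11 of the 35116 promoters of the table, or 0.0313%, which include windows of CSAG1 and CSAG3 that lie beside MAGE-A genes. The MAGEA11 window and the 5 MAGEA4 windows did not contain it. Its first 9 bases, GGATGTGAC, were in the first windows of all 10 MAGE-A genes of the table and in 0.302% of all promoters on either strand. The 9 bases were sought as the longest stretch shared by those first windows. The 24 bases extend them within the first windows of MAGEA2, MAGEA2B, MAGEA3, MAGEA6 and MAGEA12. Presence in those windows was therefore fixed by the search.

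The windows also differed in short motifs. The Sp1 core GGGCGG occurred 4 times in the MAGEA11 window, counting both strands, once in 4 of the 5 MAGEA4 windows, and not in those of MAGEA3, MAGEA6 or MAGEA12, while 45% of all promoters held it. An ETS core, CCGGAA, occurred once in the MAGEA3 and MAGEA6 windows, and 17.2% of all promoters held it. Its variant with T after GGA, CCGGAT, was absent from those windows, and 7.12% of all promoters held it. The variant occurred 1 time in the MAGEA11 window, 1 time in the first MAGEA12 window and 2 times in the first MAGEA4 window. The MAGEA11 window had 21 CG dinucleotides, the MAGEA6 window 19, the MAGEA4 windows between 10 and 15, and the MAGEA12 windows 9 and 15, against a median of 14 over all promoters. A match is a string of letters and not a bound site, and DNA methylation was not measured on these arrays.

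MAGEA6 was high in the GFP clone alone. This gene encodes a near-copy of MAGEA3, and both proteins bind the ubiquitin ligase TRIM28. Its probe set read 3.7 in the 1-vector clone, 11.1 in clone G, 1.1 in clone E, 1659.5 in the GFP clone, 4.0 and 4.6 in antibody-treated and untreated Colo357, 21.5 in antibody-treated HT29 and 13.7 in HT29. The GFP clone value stood at percentile 95.5 of its array and the HT29 value at percentile 30.9. The other 7 arrays spanned 1.1 to 21.5, all below the median intensity of 45.0 over the arrays. In bulk RNA, more cells with a transcript and more transcript per cell cannot be told apart.

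MAGEA12, a close relative whose peptides are also recognised by T cells, had the same high array. Its probe set read 10 in the 1-vector clone, 34.0 in clone G, 7.7 in clone E, 895.1 in the GFP clone, 2.9 and 7.8 in antibody-treated and untreated Colo357, 21.8 in antibody-treated HT29 and 25.1 in HT29. The GFP clone stood at percentile 91.2 of its array. Clone G, at percentile 50.8, was the only other array on which it passed the array median.

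MAGEA3, the best-known vaccine target of the family, was read only together with MAGEA6. Their shared probe set gave 2.5, 14.8 and 6.2 in the 1-vector clone and clones G and E, 1714.8 in the GFP clone, 25.4 and 3.0 in antibody-treated and untreated Colo357, 27.5 in antibody-treated HT29 and 28.7 in HT29. Its high array was again the GFP clone, and how much of the signal came from each gene was not tested.

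MAGEA11, a coregulator of the androgen receptor, was high in Colo357 and near 0 elsewhere. Its probe set read 0.8, 0.6 and 0.7 in the 1-vector clone and clones G and E and 1.6 in the GFP clone. It read 640.1 and 239.5 in antibody-treated and untreated Colo357, against 1.7 and 0.6 in antibody-treated and untreated HT29. The Colo357 values were at percentile 87.6 with antibody and percentile 73.9 without. No array of HT29 or its clones exceeded 1.7. Levels over the lines had chosen the genes, and the share of all probe sets that separate the lines was not computed.

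The remaining members stayed low. MAGEA1, the founding member of the family, had a probe set that read 7.3, 1.9 and 12.7 in the 1-vector clone and clones G and E, 28.6 in the GFP clone, 29.4 and 13.7 in antibody-treated and untreated Colo357, 1.6 in antibody-treated HT29 and 2.2 in HT29. None of its values exceeded the median of its array. MAGEA4, a target of engineered T cell therapy, had a probe set that ran between 1.8 in untreated Colo357 and 16.5 in clone G. MAGEA10, whose peptides are also T cell targets, had a probe set that ran between 1.2 in clone E and 3.8 in Colo357. The 25th percentile of all values was 10.1, and the order of readings below it carries little information.

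**Figure D1:**
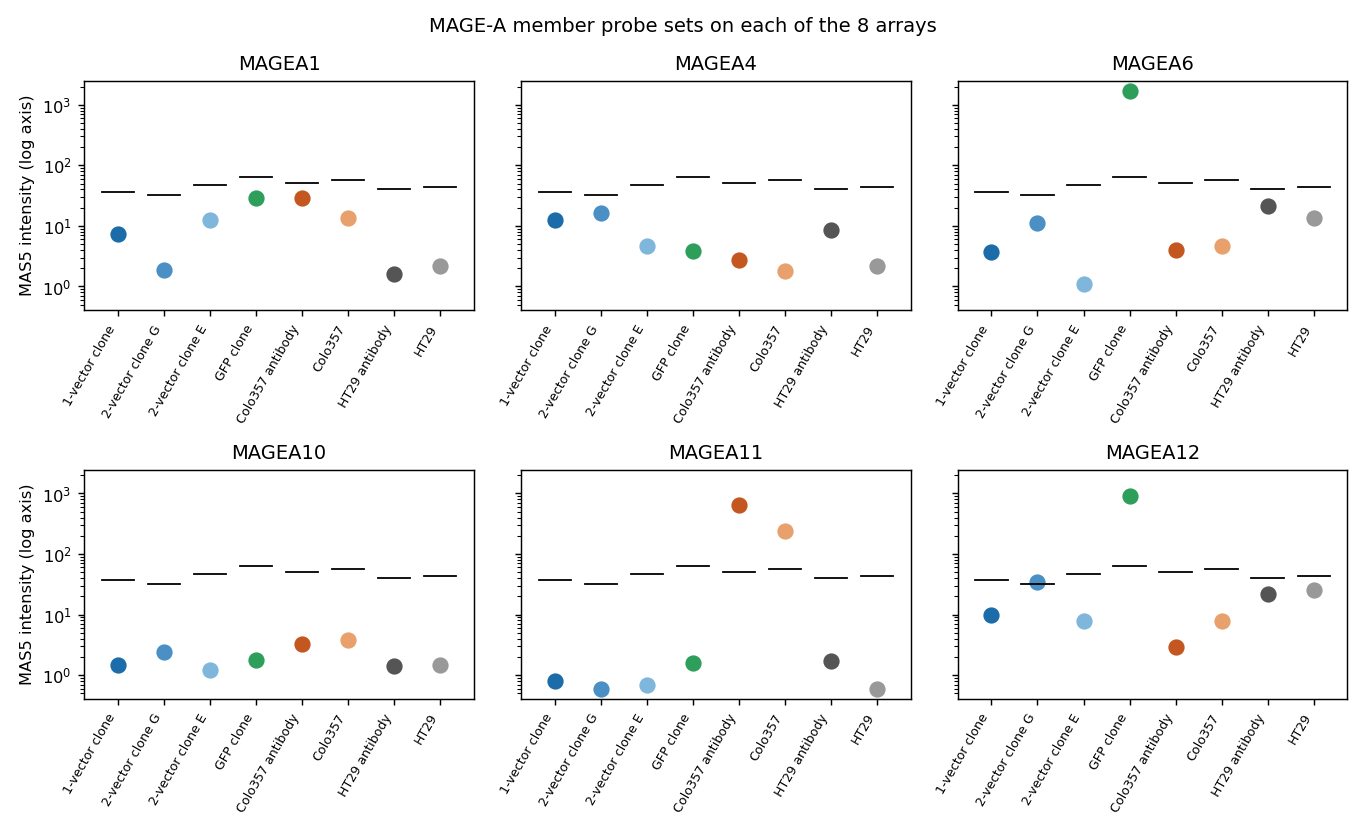
MAS5 intensity (log axis) of the 6 MAGE-A probe sets on the 8 arrays, 1 point an array, with a black bar at that array's median. MAGEA6 and MAGEA12 stand far above the median in the GFP clone (1659.5 and 895.1) and MAGEA11 in both Colo357 arrays (640.1 and 239.5).

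In order of level, the array next to the GFP clone was antibody-treated HT29 for MAGEA6, at 21.5, and clone G for MAGEA12, at 34.0. MAGEA11 fell into 2 Colo357 arrays and 6 arrays between 0.6 and 1.7. With 1 array a condition, neighbours in the low range cannot be separated by any spread between replicates.

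The GFP clone, the vector control, was first compared with its parent line HT29. The log2 difference of intensity plus 10 was 6.14 for MAGEA6, or 70.4-fold on that scale, which ranked 3 of 22215 probe sets. It was 4.69 for MAGEA12, or 25.8-fold, ranking 25. MAGEA1 differed by 1.66, MAGEA4 by 0.18, MAGEA11 by 0.13 and MAGEA10 by 0.04. Of the 6 members, 3 were at least 2-fold higher, where 13.5% of all probe sets were, and 0 were 2-fold lower, where 5.46% were. The rule used this contrast, so the counts describe the choice of members.

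Probe sets of the family outside the members showed the same clone high. MAGEA6 with MAGEA3 differed by 5.48, CSAG2 with CSAG3 by 2.68, the MAGEA5P pseudogene with LOC100533997 by 2.40 and MAGEA2B with MAGEA2 by 1.68. MAGEA8 differed by 0.29 and MAGEA9B with MAGEA9 by -0.79. In intensity, CSAG2 with CSAG3 read 59.8 in the GFP clone against 0.9 in HT29, and MAGEA2B with MAGEA2 read 56.8 against 10.8, both below the GFP clone's array median of 63.1.

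The MAGEA6, MAGEA12, MAGEA1 and MAGEA5P probe sets carry the suffix _x_at, which Affymetrix gives where some probes also match other sequences. The contribution of relatives to their signals was not tested, and no probe sequences were used here. The MAGEA2B with MAGEA2 probe set carries no such suffix, although its annotation lists both genes. Of the 6 member probe sets, the 3 without _x_at were MAGEA4, MAGEA10 and MAGEA11, and none of these differed 2-fold between the GFP clone and HT29.

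Most of the MAGE-A and CSAG probe sets that were higher in the GFP clone were neighbours on the chromosome. In RefSeq gene order, 88 genes run from MAGEA11 to MAGEA1, and 33 of them had a probe set. The 10 genes from MAGEA3 to MAGEA6 include MAGEA12, MAGEA2, MAGEA2B and the CSAG genes. All 5 probe sets there were at least 2-fold higher in the GFP clone than in HT29, where 13.5% of all probe sets were. Among them, MAGEA6 and MAGEA12 are members, which this contrast had helped to choose. The MAGEA6, MAGEA12 and shared MAGEA6 with MAGEA3 probe sets there carry the suffix _x_at. Among 22 probe sets of other genes along the stretch, 2 were higher and 3 were lower, where 13.5% and 5.46% of all probe sets were. Their median was -0.24 and their maximum 1.39, for a probe set of MTM1, the myotubularin phosphatase, reading 26.9 in the GFP clone and 4.1 in HT29. Another MTM1 probe set differed by -0.1. MAGEA10 and MAGEA4 lie on the MAGEA11 side of that block, and MAGEA1 closes the stretch. Outside the block, MAGEA1 and the MAGEA5P with LOC100533997 probe set were also at least 2-fold higher in the GFP clone.

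**Figure D2:**
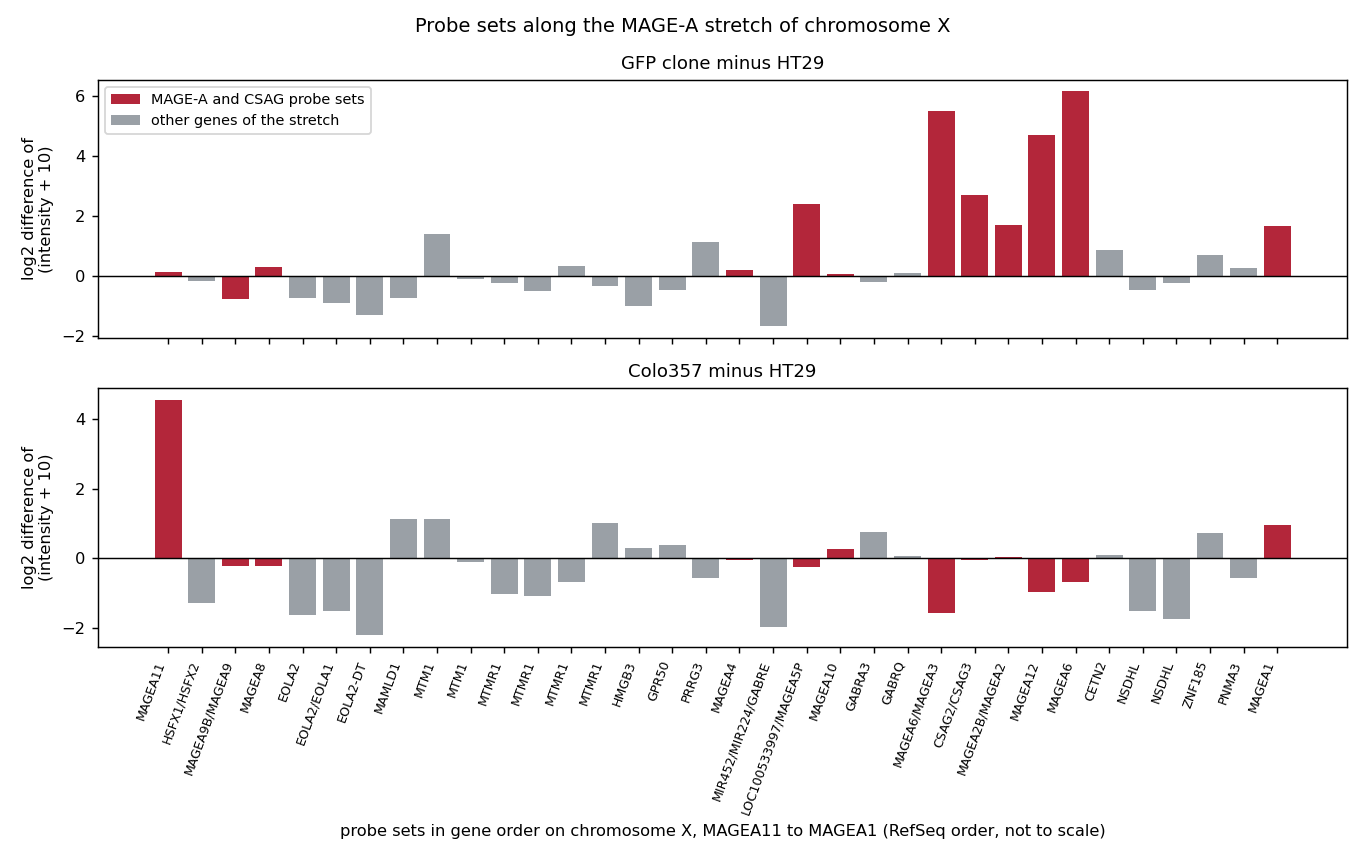
Log2 difference of (intensity + 10) for the GFP clone minus HT29 (top) and Colo357 minus HT29 (bottom), 1 bar a probe set, in gene order on chromosome X and not to scale. The tallest bars of the top panel are MAGEA6 (6.14), MAGEA6/MAGEA3 (5.48) and MAGEA12 (4.69), and MAGEA11 (4.56) is the tallest of the bottom panel.

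The 3 clones with CD24 shRNA were next set against the GFP clone and HT29 together, the comparison that the vectors were made for. MAGEA6 averaged 3.88 ± 0.47 on the log2 scale (SD, n = 3) in the CD24 shRNA clones, against 7.64 in the 2 controls, a difference of -3.75. MAGEA12 averaged 4.64 ± 0.71 (SD, n = 3) in the CD24 shRNA clones, against 7.48 in the 2 controls, a difference of -2.84. The controls themselves were far apart, since the GFP clone and HT29 read 1659.5 and 13.7 for MAGEA6.

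Of the 6 members, 2 were at least 2-fold lower in the CD24 shRNA clones, where 13.1% of all probe sets were, and 0 were higher, where 3.84% were. MAGEA4 differed by 0.66, MAGEA1 by -0.38, MAGEA11 by -0.05 and MAGEA10 by 0.00. All 3 clones lay below both controls for MAGEA6, as they did for 19.7% of all probe sets. All 3 lay above both controls for MAGEA4, as for 12.8% of all probe sets, with 12.5, 16.5 and 4.6 in the 1-vector clone and clones G and E, against 3.8 in the GFP clone and 2.2 in HT29.

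The counts differed with the control. Against HT29 alone, MAGEA6 differed by -0.68, MAGEA12 by -0.49, MAGEA4 by 0.75 and MAGEA1 by 0.45, and 0 of 6 members reached 2-fold either way, where 8.89% of all probe sets were higher and 13.3% lower. Against the GFP clone alone, MAGEA6 differed by -6.82, MAGEA12 by -5.18 and MAGEA1 by -1.21, so that 3 of 6 were at least 2-fold lower, where 16.7% were, and 0 were higher, where 3.43% were. These comparisons share the CD24 shRNA arrays.

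Colo357 was compared with HT29 to describe the family in a second CD24-bearing carcinoma line. MAGEA11 differed by 4.56, or 23.5-fold, ranking 152 of 22215. MAGEA1 differed by 0.96, MAGEA10 by 0.26, MAGEA4 by -0.05, MAGEA6 by -0.70 and MAGEA12 by -0.98. Of the 6 members, 1 was at least 2-fold higher in Colo357, where 12.7% of all probe sets were, and 0 were lower, where 9.77% were. No MAGE-A probe set was high in both Colo357 and the GFP clone. MAGEA1 was the only member whose 3 highest readings came from the GFP clone and both Colo357 arrays, at 28.6, 29.4 and 13.7.

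The antibody comparison was not used to choose the genes. MAGEA11 read 640.1 with antibody and 239.5 without in Colo357, and 1.7 with antibody and 0.6 without in HT29. Within Colo357 the log2 difference was 1.38, or 2.61-fold, and within HT29 it was 0.14. Of the 6 members, 1 was at least 2-fold higher with antibody in Colo357, where 9.24% of all probe sets were, and 0 were in HT29, where 5.7% were. Lower members numbered 0 in both lines, where 10.4% of all probe sets were lower in Colo357 and 7.05% in HT29.

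Over both lines together, MAGEA11 was the only member bright enough to be tested, and it was not called. It met the filter on mean intensity only through the 2 Colo357 arrays, whose level had chosen it. The limma fit gave a log2 difference of 0.76 ± 0.38 (SE), with a Benjamini-Hochberg adjusted p of 0.238 over 11785 probe sets. Its unadjusted p also exceeded 0.05. The fit took 4 arrays with the line as a block. The fit called 663 probe sets, 5.63% of those tested, of which 205, or 1.74%, were higher with antibody and 458, or 3.89%, lower. After quantile normalization, without the filter on low values, or with all 8 arrays, the fit called 0. The MAGEA11 value comes mostly from Colo357, since HT29 gave 0.14.

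The other members differed less than 2-fold with antibody. In Colo357, MAGEA1 differed by 0.73, MAGEA4 by 0.11, MAGEA10 by -0.05, MAGEA6 by -0.06 and MAGEA12 by -0.46. In HT29, MAGEA4 differed by 0.61, MAGEA6 by 0.41, MAGEA1 by -0.07, MAGEA10 by -0.01 and MAGEA12 by -0.14. Their intensities stayed below 30 on all 4 arrays, under the level needed to enter the fit. The shared MAGEA6 and MAGEA3 probe set differed by 1.45 in Colo357, reading 25.4 with antibody and 3.0 without.

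**Figure D3:**
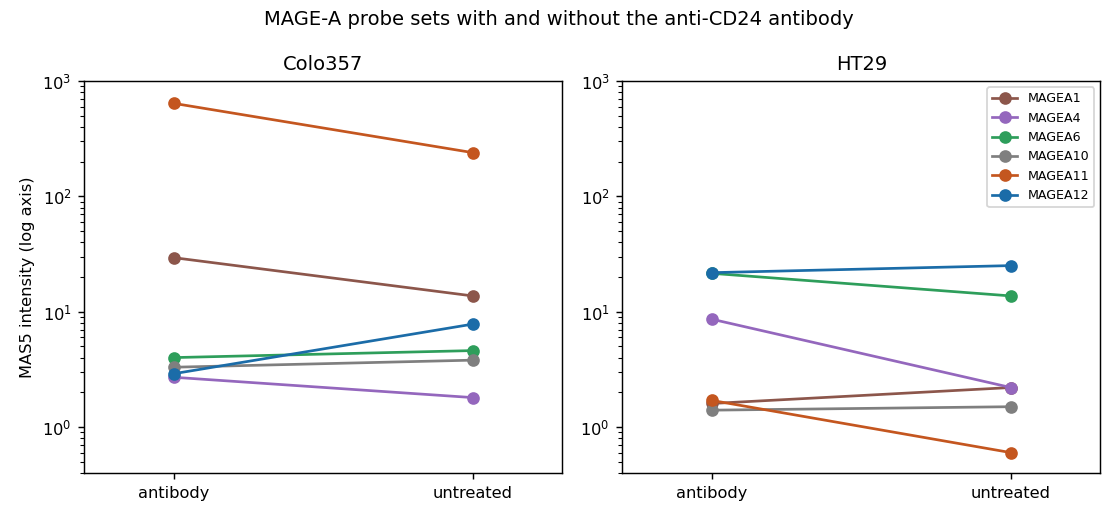
MAS5 intensity (log axis) of the 6 MAGE-A probe sets with antibody (left) and without (right) in Colo357 and HT29, 1 array a point. MAGEA11 in Colo357 (640.1 with antibody, 239.5 without) is the only line that stays above 100.

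Other cancer-testis genes of chromosome X did not share the MAGE-A levels. Their 45 probe sets reached at most 78.6, 5 exceeded the median of any array, and none was bright enough to test with antibody. In the GFP clone 3 were at least 2-fold higher than in HT29 and 2 lower, where 13.5% and 5.46% of all probe sets were, with a median difference of -0.13 against 0.12 over all probe sets. LUZP4, a germ cell mRNA export adaptor, read 30.1 in the GFP clone against 2.2 in HT29. In Colo357, 1 was higher and 7 were lower than in HT29, where 12.7% and 9.77% of all probe sets were. MAGEB2, a related MAGE gene, read 27.8 and 13.3 in antibody-treated and untreated Colo357 and 14.1 in HT29.

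Autosomal germ cell genes that promoter methylation silences were mostly low as well. Of 20 probe sets, 3 were at least 2-fold higher in the GFP clone than in HT29 and 0 were lower, where 13.5% and 5.46% of all probe sets were, and 3 exceeded the median of any array. PIWIL1, a germline small RNA-binding protein, read 23.4 in the GFP clone against 13.5 in HT29. PIWIL2, its paralogue, read 40.7 and 30.1 in antibody-treated and untreated Colo357 against 8.6 in HT29. Another PIWIL2 probe set read 1.4 and 2.8 in antibody-treated and untreated Colo357 against 2.1 in HT29. With antibody, limma called 0 of the 2 probe sets bright enough to test, and 1 had an unadjusted p under 0.05. SPAG9, which is transcribed in many tissues, had 3 probe sets that disagreed, reading 82.9, 53.1 and 142.2 in the GFP clone against 83.3, 15.8 and 139.0 in HT29.

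Of 11 probe sets for the ubiquitous MAGE genes, which are not silenced in adult tissues, 4 or 5 exceeded the median on each array. MAGED1, an adaptor of the p75 neurotrophin receptor, read 2636.8, 2272.4 and 1743.9 in the 1-vector clone and clones G and E, 2586.0 in the GFP clone, 538.5 and 1229.3 in antibody-treated and untreated Colo357 and 1122.3 in HT29. MAGED2, which acts in renal salt reabsorption, read 664.1, 210.1 and 295.2 in the 1-vector clone and clones G and E and 402.7 in the GFP clone, against 72.5 in HT29. In this list, 3 probe sets were at least 2-fold higher in the GFP clone than in HT29 and 1 lower, where 13.5% and 5.46% of all probe sets were; 2 of the 3 measure MAGED2.

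MAGEH1 of the same list was called with antibody. It read 137.2 with antibody and 31.6 without in Colo357, and 16.4 with antibody and 3.5 without in HT29, a limma log2 difference of 1.40 ± 0.36 (SE) with an adjusted p of 0.0398. It was the 1 probe set called of 5 of the list that could be tested, where 5.63% of all tested probe sets were called. Its mean over the 4 arrays, 47.2, passed the filter at 45.0 only through antibody-treated Colo357, so the call is no independent support, and it was lost under each of the 6 other settings of the fit.

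**Figure D4:**
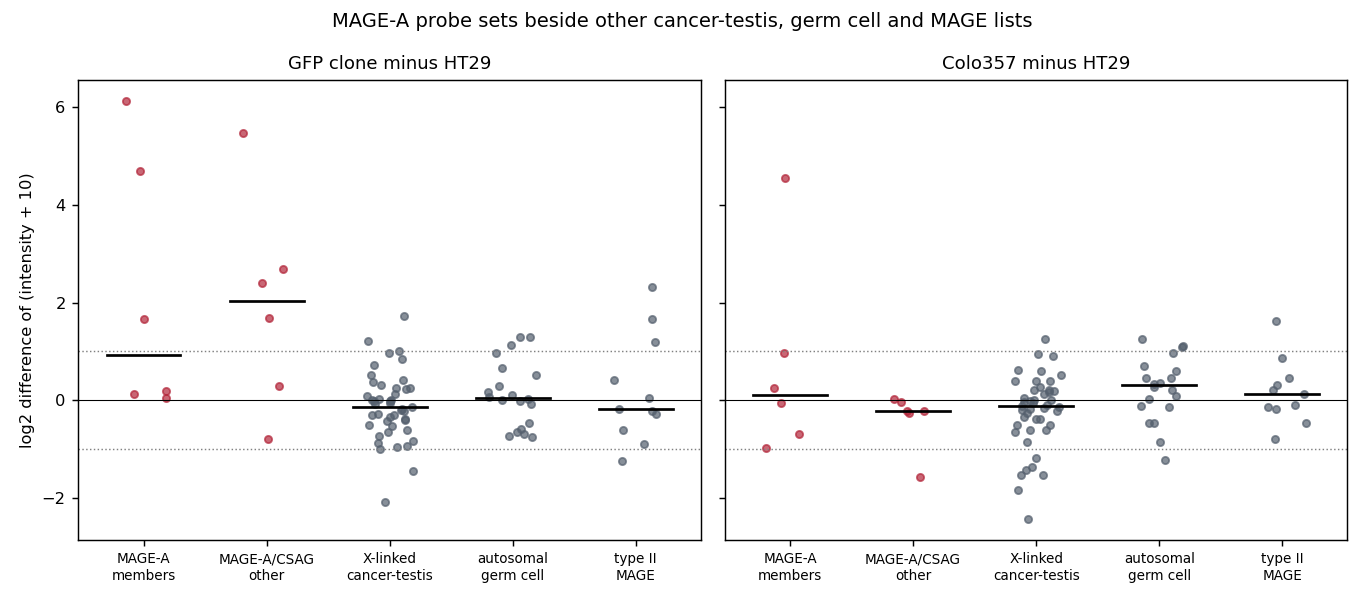
Log2 difference of (intensity + 10) for the GFP clone minus HT29 (left) and Colo357 minus HT29 (right), 1 point a probe set, with a black bar at each list's median and dotted lines at 2-fold. The highest points are MAGE-A probe sets in both panels, at 6.14 for MAGEA6 and 4.56 for MAGEA11, while the 45 probe sets of other X-linked cancer-testis genes have medians of -0.13 and -0.11.

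Genes of DNA methylation and chromatin silencing were measured by 41 probe sets. In the GFP clone 3 were at least 2-fold higher than in HT29 and 6 were lower, and 6 were at least 2-fold lower and 0 higher in the CD24 shRNA clones than in the mean of both controls. Over all probe sets those shares were 13.5% higher and 5.46% lower in the GFP clone, and 13.1% lower and 3.84% higher in the CD24 shRNA clones. The 6 of 41 lower in the CD24 shRNA clones are thus near the background, while the 6 of 41 lower in the GFP clone exceed it. Those of the GFP clone were the MBD4 probe sets (-1.26, -1.07, -1.11 and -1.03), HDAC1 (-1.01) and HELLS (-1.68), and their part in the MAGE-A values was not tested. SUZ12, a subunit of the Polycomb repressive complex that methylates histone H3, read 83.6, 153.2 and 542.2 in the 1-vector clone and clones G and E, against 1009.7 in the GFP clone and 1324.6 in HT29. HDAC2, a histone deacetylase, read 202.0, 251.5 and 763.4 in those clones, against 846.2 in the GFP clone and 1400.2 in HT29. ATRX, a chromatin remodeller of heterochromatin, fell by 2.03 ± 0.34 (SE) on the log2 scale with antibody for 1 probe set, with a limma adjusted p of 0.0098, reading 13.1 with antibody and 88.6 without in Colo357 and 17.1 and 95.5 in HT29. A further ATRX probe set fell by 1.56 ± 0.34, with a limma adjusted p of 0.0241. Of 32 tested probe sets of the list, 2 were thus lower and 0 higher, where 3.89% and 1.74% of all tested probe sets were. The first ATRX probe set was also called with pseudocounts of 1 and 50 and lost in the other settings. The further one was lost in each alternative that tested it. Both had means over the 4 arrays, 53.6 and 59.3, that passed the filter at 45.0 only through the untreated arrays. The calls are therefore no independent support. The ATRX probe sets too low to test differed by -0.95 and -0.64 in Colo357 and by -0.70 and -0.09 in HT29.

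Protein partners and substrates of MAGE-A were measured by 28 probe sets, of which 2 were at least 2-fold higher and 1 lower in the GFP clone than in HT29, where 13.5% and 5.46% of all probe sets were. FBP1, a gluconeogenic enzyme that the MAGE-A3 and TRIM28 ligase degrades, read 675.4, 291.2 and 325.4 in the 1-vector clone and clones G and E, 287.1 in the GFP clone and 5.1 and 11.3 in antibody-treated and untreated Colo357, against 1006.5 in HT29. The MAGEA6 values of clones G and E were 11.1 and 1.1. These are RNA and not protein levels, and a link between FBP1 and MAGE-A was not tested. PRKAA2, a catalytic subunit of the AMP-activated kinase, read 51.3 in Colo357 and 2.3 in HT29. NCOA2, a nuclear receptor coactivator that binds MAGE-A11, fell by 1.45 ± 0.34 (SE) with antibody, with a limma adjusted p of 0.0288. It was the 1 probe set called of 18 tested, where 5.63% of all tested probe sets were called. That call was lost in each of the 6 other settings, with adjusted p between 0.0535 and 0.526. It read 53.9 with antibody and 160.7 without in Colo357, and 56.9 and 176.1 in HT29, while MAGEA11 was higher with antibody in Colo357.

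Transcription factors reported at MAGE-A promoters were measured by 20 probe sets, of which 5 were at least 2-fold higher and 4 lower in Colo357 than in HT29, where 12.7% and 9.77% of all probe sets were. TFAP2A, an AP-2 factor, read 1128.1 and 1871.9 in antibody-treated and untreated Colo357, against 101.5 in the GFP clone and 34.1 in HT29. TFAP2C, its relative, read 117.8 and 101.5 in antibody-treated and untreated Colo357, against 2.8 in HT29, while a further TFAP2C probe set differed by only 0.83 on the log2 scale between untreated Colo357 and HT29. EHF, an epithelial ETS factor, read 48.1, 17.5 and 157.4 in the 1-vector clone and clones G and E, 626.5 in the GFP clone and 420.1 in HT29. ETS2 read 3181.4 in the GFP clone and 1835.9 in HT29. With antibody, 0 of 15 tested probe sets of this list were called by limma, and 2 had an unadjusted p under 0.05.

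Genes with the array pattern most like MAGEA6 were sought among 2239 probe sets of 1759 genes whose log2 values ranged over at least 3. Pearson's r over the 8 arrays was 0.932 for OAS2, an interferon-induced antiviral enzyme, 0.900 for CTBS, a lysosomal chitobiase, 0.877 for IGSF1, a pituitary membrane protein, 0.874 for IFI44 and 0.868 for IFI44L, both interferon-induced. Without the GFP clone, r over 7 arrays was 0.271 for OAS2, 0.056 for CTBS, 0.117 for IGSF1, -0.167 for IFI44 and -0.814 for IFI44L, so 1 array made the likeness. Within the family, MAGEA12 had r = 0.981 with all arrays and 0.778 without the GFP clone, and the MAGEA6 with MAGEA3 probe set had 0.978 and 0.693. Both carry the suffix _x_at, and outside the GFP clone they read at most 34.0 and 28.7. CSAG2 with CSAG3 had 0.983 and 0.45, MAGEA5P with LOC100533997 had 0.964 and 0.308, and MAGEA2B with MAGEA2 had 0.916 and 0.603. MAGEA1 had 0.391 and -0.761, and the remaining family probe sets had r between -0.595 and 0.006 with all arrays. OAS2 read 348.5 in the GFP clone against 12.9 in HT29. All arrays share the normalization, and these values are descriptions.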

How the data were processed

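The submitters' processing notes name MAS5, and per the labels the arrays were Affymetrix GeneChips. The authors deposited 1 linear intensity per probe set and array for 22277 probe sets, scaled per array; 62 controls were removed. Whether the arrays stem from separate cultures is not in the labels. Each line had 1 array with antibody and 1 without. The residual spread of a probe set in the reported antibody fit is therefore the disagreement of its antibody difference between the lines. The p-values rest on that spread, moderated over probe sets, and cover no spread between replicate arrays or cultures. Technical differences between arrays cannot be told from differences between the cells. Of the remaining probe sets, 19064 carried 1 gene symbol in the platform annotation, 1043 carried several and 2108 none, and genes were named from the first kind. Differences were taken on log2(intensity + 10), which understates changes of low probe sets, and 2-fold means a log2 difference of at least 1. Higher or lower over all probe sets gives the background share.

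The antibody test used limma 3.58.1 in R 4.3.3 (lmFit and eBayes, two-sided, line as block, 1 residual degree of freedom), on the 11785 probe sets whose mean over the 4 arrays exceeded 45.0, with Benjamini-Hochberg adjustment over them and calls at an adjusted p under 0.05. The fit was tested on simulated data. The list of named genes held every member, the other MAGE-A probe sets, up to 4 genes a list with the largest log2 range (the widest-ranging probe set stands for a gene), the 5 most like MAGEA6, and CD24. The members and lists were chosen with earlier results of these data known. MTM1, and the markers given with values, were picked after their values were seen. Alternatives tried were pseudocounts of 1 and 50, quantile normalization, no filter, leaving out _x_at and _s_at probe sets, other controls, and leaving out arrays. Promoters came from RefSeq (GRCh38.p14). Python 3.11.15 with pandas 2.3.3, numpy 2.4.6 and matplotlib 3.10.9 was used.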

Additional observations from a re-analysis of the deposited data

Results flagged for a closer look

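Antibody and untreated arrays differed in opposite directions between the lines for 2 members. The MAGEA1 log2 difference, antibody minus untreated, was 0.73 in Colo357 and -0.07 in HT29. The MAGEA6 log2 difference was -0.06 in Colo357 and 0.41 in HT29. Each value compares 1 array with 1 array, all at low intensity, and the difference between the lines was not tested. No group had enough arrays for a check of single outlying arrays.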

How the results depend on the processing

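Of 44 member counts and antibody calls recomputed under the alternatives, 32 were equal to the reported count, 2 differed by at most 1.5 times and 10 by more, and no direction of a called value reversed. The 2 were the GFP clone's higher members, 2 with a pseudocount of 50, and the CD24 shRNA clones' lower members, 3 against the GFP clone alone. The GFP clone's 3 members higher than HT29 became 0 of 3 without _x_at and _s_at probe sets, since MAGEA6, MAGEA12 and MAGEA1 are then not measured. For the CD24 shRNA clones, the 2 lower members became 0 without those probe sets and 0 with HT29 alone as the control, and the count of higher members became 1 with a pseudocount of 1 (MAGEA4, 1.49). For Colo357, the 1 higher member became 2 with a pseudocount of 1 and 2 with both arrays of each line, and the 0 lower members became 2 with a pseudocount of 1, 1 after quantile normalization, 1 with both arrays of each line and 2 against the 5 untreated arrays of HT29 and its clones. The MAGEA1 difference between the GFP clone and HT29 was 0.59 with a pseudocount of 50. Leaving out each CD24 shRNA clone in turn kept 2 members lower and 0 higher, with MAGEA6 between -4.01 and -3.55 and MAGEA12 between -3.24 and -2.59. The adjusted p of MAGEA11 with antibody lay between 0.138 and 0.608 over the alternatives, and no member was called in any. The fit called 663 probe sets as reported, 79 with a pseudocount of 1, 439 with a pseudocount of 50, 1 without _x_at and _s_at probe sets, 0 after quantile normalization, 0 with all 8 arrays and 0 without the filter. In the last 3, 2496, 1117 and 3366 probe sets had an unadjusted p under 0.05. The antibody fit paired treated and untreated arrays by cell line, taken as a block. No other pairing was made, and the labels give no replicate numbers. With 1 array a condition, clone, culture and condition cannot be told apart.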
